A study of Rattus norvegicus with 12 samples.

Results

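Endothelial and vessel growth genes were followed in rat long bone through 10 genes chosen by symbol: the junction and surface genes Pecam1, Cdh5 and Emcn, the VEGF receptors Kdr and Flt1, the angiopoietin receptor Tek and its relative Tie1, the TGF-beta family co-receptor Eng, the clotting factor gene Vwf and the ligand Vegfa. All probe sets annotated with a gene's symbol and no other were averaged to represent it. Of the 10 genes, 9 had such probe sets, 13 in all, among the 14217 named genes of the arrays. Cdh5, which encodes VE-cadherin, was not analysed here.

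All rats were female Sprague-Dawley rats, sacrificed at postnatal day (PND) 81. STBB OVX rats were fed a diet with 10% freeze-dried whole blueberry (BB) powder from PND 20 to PND 34 and a casein control diet afterwards, LTBB OVX rats were fed the BB diet from PND 20 until sacrifice, and both were ovariectomized on PND 60. OVX rats were fed the control diet and ovariectomized, and sham-operated (Sham) rats were fed the control diet and kept their ovaries. No BB-fed rats with ovaries were among the arrays. Each group had 3 arrays, each measuring pooled RNA of 2 to 3 rats, so that rats within a pool cannot be told apart. The labels name the femur as the tissue and the methods the right tibia. The methods describe total RNA of bone, with no sorting of endothelial cells, and do not state whether marrow was kept.

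Blood vessels enter bone with the growing cartilage and remain close to the cells that form bone. VEGF-A is secreted by hypertrophic chondrocytes, osteoblasts, muscle fibres and other cells, and binds VEGFR2 (Kdr), which carries most of the growth signal, and VEGFR1 (Flt1), which holds much of the ligand away from VEGFR2. Angiopoietins act on the receptor TIE2 (Tek), with TIE1 beside it, to steady or loosen vessels. Endoglin (Eng) helps endothelial cells respond to BMP ligands. In mice, capillaries with much PECAM1 and endomucin (Emcn) lie near the growth plate and accompany bone formation. Several of these genes are not limited to endothelium: Pecam1 and Vwf are also expressed by megakaryocytes and platelets, and Pecam1, Flt1 and Tek by some blood cells.

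The values were deposited as log2 values, shifted so that every probe set has its median over the 12 arrays at 0. They give differences between arrays and not levels, so that neither the abundance of a gene nor the presence of a cell type could be read from them, and genes were not ranked by level. The Sham arrays stood apart from the other 9. The SD of all probe sets was 0.781 to 0.824 in Sham arrays, and 0.136 to 0.194 in the arrays of OVX rats, which lie near the median by construction. With limma, 4301 of the 14217 genes (30.3%) were higher and 4066 (28.6%) lower in OVX than in Sham bone at an adjusted p under 0.05. When the arrays were centred on 8 reference genes the split was 2925 higher (20.6%) and 5595 lower (39.4%), and the median of all genes lay at -0.16. As deposited, 3 of these 8 genes were themselves higher and 2 lower in OVX than in Sham bone. Gusb differed most among them, with a log2 fold change of 1.18 (SE 0.090), so this centre is not made of unchanged genes. After quantile normalization the split was 1537 higher (10.8%) and 1473 lower (10.4%). Counts of OVX against Sham below are read against the shares of their own setting. Quantile normalization gave all arrays nearly the same spread: the SD over genes was then 0.271 to 0.298 in the arrays of OVX rats, which had 0.126 to 0.198 as deposited, and 0.335 to 0.337 in Sham arrays, which had 0.846 to 0.891 as deposited. The p-values of each comparison rest on a spread between pools that was estimated over all 4 groups and moderated over genes. Sham pools varied most, with a residual SD of 0.198 against 0.136 to 0.149 in the groups of OVX rats.

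OVX bone carried more transcript than Sham bone of the endothelial surface and receptor genes Emcn, Eng, Tek, Tie1, Flt1, Kdr and Pecam1 and of the ligand Vegfa, and less of Vwf. By limma 8 of the 9 measured genes rose (background 30.3%) and 1 fell (background 28.6%), and their median log2 fold change was 0.84, against 0.0047 over all genes. After quantile normalization 5 rose (background 10.8%) and 1 fell (10.4%), with a median of 0.41, and after centring on the reference genes 6 rose (20.6%) and 1 fell (39.4%), with a median of 0.68. As deposited, the rises ran between 1.28-fold for Pecam1 and 4.02-fold for Emcn, and Vwf was 2.03-fold lower. These sizes depended on the scaling, and after quantile normalization the log2 fold changes were 0.80 for Emcn, 0.69 for Eng, 0.50 for Tek, 0.48 for Flt1, 0.41 for Tie1 and -0.49 for Vwf, all past the test. The 3 OVX pools lay outside the range of the 3 Sham pools for all 9 genes, as they did for 61.2% of all genes. In bulk bone RNA, fewer cells of a type and less RNA per cell cannot be told apart.

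Markers of other tissues differed between the same arrays. All 14 skeletal muscle genes (median log2 fold change -6.24) fell in OVX against Sham bone (background 28.6%). So did 7 of 8 measured erythroid genes (-2.91) and 6 of 6 measured neutrophil genes (-2.72). By contrast 8 of 9 measured cartilage genes (5.09) and 9 of 9 measured osteoblast genes (2.60) rose (background 30.3%). The mean centred values of these lists did not overlap between the groups. Muscle genes had -3.11 to -1.29 in OVX and 3.51 to 4.35 in Sham arrays. Cartilage genes had -0.065 to 0.26 in OVX and -4.51 to -4.36 in Sham arrays. Osteoblast genes had 0.001 to 0.047 in OVX and -2.40 to -2.19 in Sham arrays, and erythroid genes -0.30 to 0.098 in OVX and 2.21 to 2.59 in Sham arrays. After quantile normalization 13 muscle (median -4.14), 7 erythroid (-1.11) and 4 neutrophil genes (-1.41) fell (background 10.4%). In that setting 6 cartilage (2.46) and 9 osteoblast genes (0.99) rose (background 10.8%). The part of this difference in make-up in the rise of the endothelial genes was not tested.

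**Figure D1:**
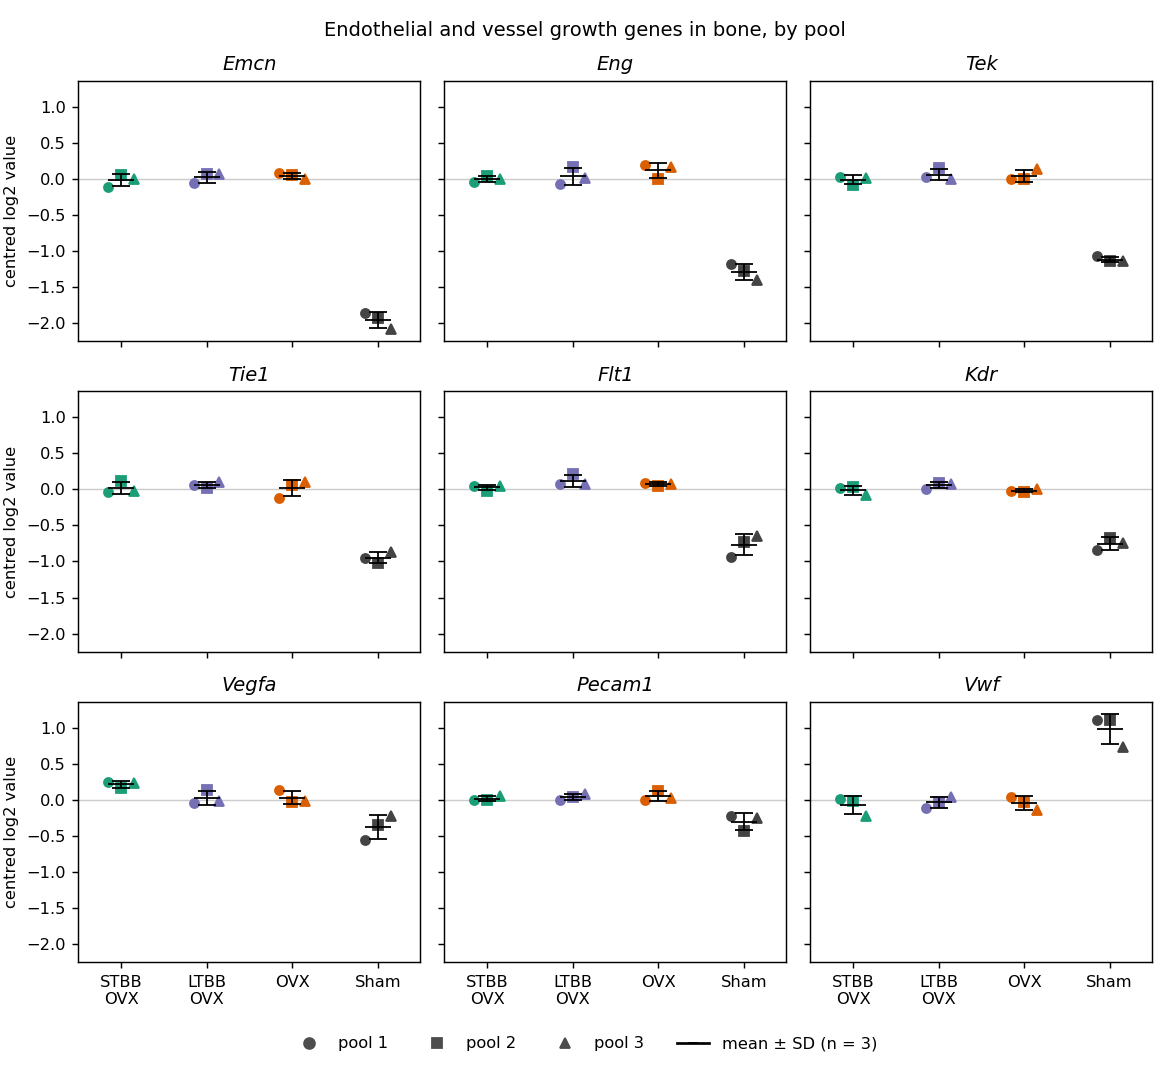
Centred log2 value of 9 endothelial and vessel growth genes (y axis, one panel per gene) in STBB OVX, LTBB OVX, OVX and Sham bone. Marker shapes tell the 3 pools of a group apart and bars give the mean ± SD (n = 3). Sham pools lie below every pool of OVX rats for 8 genes, farthest for Emcn, and above them for Vwf.

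Emcn, a sialomucin of capillary and venous endothelium, differed most. Its centred log2 values were 0.083, 0.054 and 0.0001 in the OVX pools, against -1.86, -1.93 and -2.09 in the Sham pools. The groups were separated by far more than the pools within them, with a log2 fold change of 2.01 (SE 0.075, adjusted p = 2.3e-10). This change exceeded that of 98.2% of all genes. Pecam1, the adhesion molecule at endothelial junctions, had 0.0013, 0.13 and 0.031 in OVX pools, against -0.22, -0.44 and -0.25 in Sham pools. Its rise was small but without overlap, at 0.36 (SE 0.071, adjusted p = 7.2e-04). After quantile normalization of the arrays its change was 0.23 and after centring on the reference genes 0.19, and it passed under neither. Eng, the co-receptor for BMP ligands, had 0.19, -0.0004 and 0.17 in OVX pools, against -1.18, -1.28 and -1.40 in Sham pools. It rose by 1.41 (SE 0.083, adjusted p = 1.1e-08), a 2.65-fold difference.

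The angiopoietin receptor Tek and its relative Tie1 both rose. Tek had -0.0062, -0.004 and 0.13 in OVX pools, against -1.07, -1.14 and -1.14 in Sham pools. The Sham pools spanned 0.071 and the gap to the lowest pool of OVX rats was 0.99, with a log2 fold change of 1.16 (SE 0.068, adjusted p = 1.0e-08). Tie1, whose product pairs with TIE2, had -0.11, 0.065 and 0.099 in OVX pools, against -0.95, -1.02 and -0.88 in Sham pools. It rose by 0.97 (SE 0.075, adjusted p = 1.4e-07). The 95% intervals of Tek (1.01 to 1.31) and Tie1 (0.80 to 1.13) overlapped.

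The VEGF receptors rose as gene means, but their probe sets were not alike. Flt1 had 0.095, 0.046 and 0.078 in OVX pools, against -0.93, -0.73 and -0.65 in Sham pools, and rose by 0.84 (SE 0.078, adjusted p = 7.5e-07). Its 3 probe sets gave 0.63 (1369087_at), 0.83 (1370492_a_at) and 1.07 (1377113_at), each past the test over all probe sets. Kdr had -0.016, -0.036 and 0.0033 in OVX pools, against -0.84, -0.67 and -0.75 in Sham pools, and rose by 0.74 (SE 0.065, adjusted p = 4.6e-07). Behind this mean stood 1 probe set that changed and 1 that did not pass. The probe set 1367948_a_at had -0.019, 0.063 and 0.019 in OVX pools, against -1.47, -1.38 and -1.52 in Sham pools (1.48, SE 0.071, adjusted p = 7.7e-10). The probe set 1397868_at had -0.014, -0.14 and -0.012 in OVX pools, against -0.21, 0.042 and 0.022 in Sham pools (-0.0036, SE 0.092, adjusted p = 0.98). Its 95% interval was -0.20 to 0.20, so the rise seen by the first probe set lay outside it. Which of them follows the Kdr transcript more closely cannot be read from centred values, and the log2 fold change of Kdr was 1.48 with 1 probe set per gene. After quantile normalization of the arrays Kdr was at 0.255 and did not pass.

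Vegfa, the ligand of both receptors, rose as a gene mean. It had 0.13, -0.027 and -0.015 in OVX pools, against -0.55, -0.36 and -0.22 in Sham pools (log2 fold change 0.41, SE 0.088, adjusted p = 0.00139). The groups did not overlap, and the gap between the closest pools was 0.17 among the pools of all OVX rats and the Sham pools. The probe set 1373807_at rose by 0.62 (SE 0.094, adjusted p = 7.1e-05), whereas 1370081_a_at had 0.19 (SE 0.10, adjusted p = 0.132) with overlapping pools. With 1 probe set per gene, the one that did not pass, Vegfa had 0.19. After quantile normalization it had 0.19 and after centring on the reference genes 0.24, and it passed under neither.

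**Figure D2:**
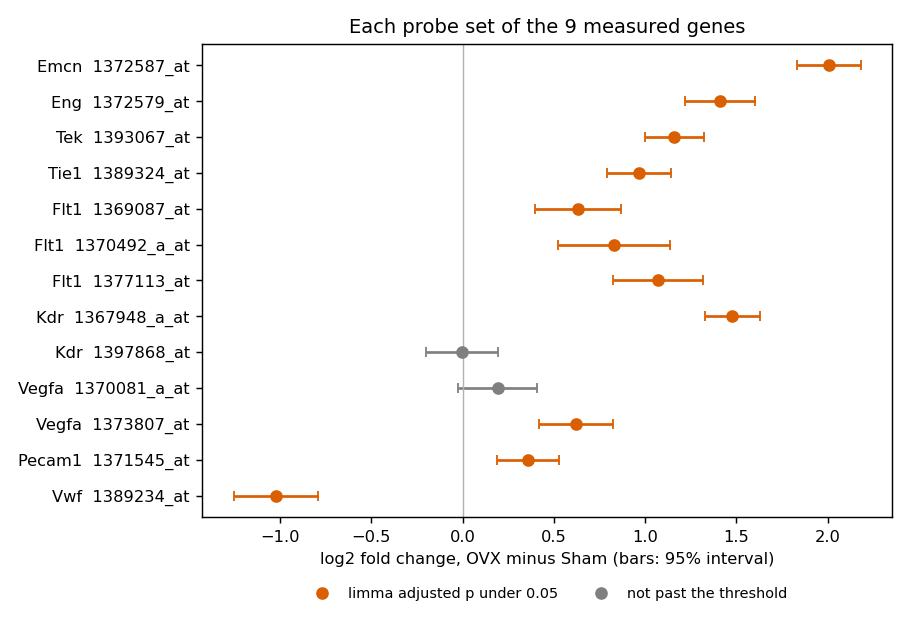
Log2 fold change of OVX minus Sham (x axis) for each of the 13 probe sets of the 9 genes (y axis), with 95% intervals; orange passed limma at an adjusted p under 0.05 over all 31042 probe sets and grey did not. The probe sets of Kdr stand at 1.48 and -0.0036 and those of Vegfa at 0.19 and 0.62.

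Vwf, which encodes the factor that binds platelets to injured vessel walls, went the other way. It had 0.044, -0.031 and -0.14 in OVX pools, against 1.11, 1.10 and 0.74 in Sham pools. The OVX pools lay below all Sham pools, and the log2 fold change was -1.02 (SE 0.10, adjusted p = 1.9e-06). Vwf is made by endothelium and by megakaryocytes, and markers of megakaryocytes and platelets fell with it. All 9 measured of 12 such markers fell (background 28.6%), with a median of -2.41. The mean of their centred values was -0.28 to 0.063 in OVX arrays, and 1.86 to 2.41 in Sham arrays. Mmrn1, a multimerin stored in platelets, was at -2.89 (SE 0.23), Treml1, a receptor of platelet granules, at -2.63 (SE 0.14) and Ppbp, the platelet basic protein, at -2.58 (SE 0.28). Selp, which encodes P-selectin of platelets and endothelium and stands in both marker lists, changed least of the 9, at -0.78 (SE 0.066). After quantile normalization 5 of the 9 passed, all lower (background 10.4%), and Mmrn1 (-1.17), Ppbp (-1.17) and Selp (-0.21) were among the others. The part of megakaryocytes in the fall of Vwf was not tested.

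Promoter windows are shown for 4 of the genes that rose, picked since they hold the letters AGGAAG. These letters are a form of the core that ETS factors bind in many endothelial genes. The windows of Kdr and Vegfa, which rose as gene means too, hold no match and are not shown. RefSeq windows of build GRCr8, 250 bases before to 50 after the start, were matched for 6 of the 10 genes, with 7 windows in all since Vegfa had 2. Capitals mark AGGAAG or its reverse complement CTTCCT.
Emcn (chr2:228564289-228564588, plus strand): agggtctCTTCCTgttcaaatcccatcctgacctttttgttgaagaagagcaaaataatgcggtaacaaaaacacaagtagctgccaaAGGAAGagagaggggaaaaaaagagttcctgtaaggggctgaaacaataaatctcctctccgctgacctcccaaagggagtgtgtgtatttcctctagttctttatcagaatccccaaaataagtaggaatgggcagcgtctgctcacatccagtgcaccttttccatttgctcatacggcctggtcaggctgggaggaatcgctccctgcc
Eng (chr3:36332029-36332328, plus strand): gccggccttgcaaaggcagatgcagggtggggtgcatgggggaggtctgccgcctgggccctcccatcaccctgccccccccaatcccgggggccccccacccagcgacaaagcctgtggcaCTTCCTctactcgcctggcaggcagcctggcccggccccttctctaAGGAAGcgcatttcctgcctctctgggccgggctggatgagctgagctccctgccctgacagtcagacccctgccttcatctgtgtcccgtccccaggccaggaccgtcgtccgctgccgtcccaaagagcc
Tie1 (chr5:137304932-137305231, minus strand): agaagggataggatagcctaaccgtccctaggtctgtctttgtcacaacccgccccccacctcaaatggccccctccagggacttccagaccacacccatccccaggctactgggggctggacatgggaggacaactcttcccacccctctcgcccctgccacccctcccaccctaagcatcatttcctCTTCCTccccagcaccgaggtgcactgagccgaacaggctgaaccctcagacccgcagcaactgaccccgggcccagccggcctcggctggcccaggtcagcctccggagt
Flt1 (chr12:12333180-12333479, plus strand): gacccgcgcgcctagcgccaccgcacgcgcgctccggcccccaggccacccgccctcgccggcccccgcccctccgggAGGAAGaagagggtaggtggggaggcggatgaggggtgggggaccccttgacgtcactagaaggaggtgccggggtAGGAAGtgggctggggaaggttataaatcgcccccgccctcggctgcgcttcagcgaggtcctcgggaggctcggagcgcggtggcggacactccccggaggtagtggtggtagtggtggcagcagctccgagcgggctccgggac
AGGAAG was found on either strand in 4 of the 7 windows, those of Emcn, Eng, Flt1 and Tie1, and in 34.5% of the 33469 windows of all genes. Of the other letters searched on both strands, GGGCGG was in 4 windows (33.1% of all), AGGTCA in 3 (16.2%), AGATAA in 1 (11.6%) and TATAAA in 1 (14.2%). ACGTG (19.3%) was in none. It is a form of the core of the hypoxia response element, and the form GCGTG was not searched. The full palindromic estrogen response element (0.0269%) was in none. AGGTCA is an arm of that palindrome and can overlap it. A match describes the letters only.

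Further endothelial genes moved mostly as the 8 members did. Of 38 listed and 36 measured, 25 rose (background 30.3%), 7 fell (28.6%) and 4 did not pass, with a median log2 fold change of 0.705. Tm4sf1, a tetraspanin-like surface protein of endothelium, rose by 2.18 (SE 0.12), Stab1, a scavenger receptor of sinusoidal endothelium and macrophages, by 1.96 (SE 0.084), and Sox7, a transcription factor of endothelium, by 1.80 (SE 0.11). The 7 that fell, named after their values were seen, were Tal1 (-1.58), Selp (-0.78), Fli1 (-0.71), Gata2 (-0.64), Aqp1 (-0.57), Lmo2 (-0.43) and Myct1 (-0.41). Of these, Tal1, Gata2, Lmo2 and Fli1 encode transcription factors of blood-forming cells as well as of endothelium, and Aqp1 is the water channel of red cells too. Erythroid markers fell in the same comparison, and their part in these falls was not tested. After quantile normalization of the arrays 14 endothelial genes of this list rose (background 10.8%) and 2 fell (10.4%), which were Tal1 and Fli1, and after centring on the reference genes 22 rose (20.6%) and 8 fell (39.4%).

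Ligands and co-receptors next to the members rose as well. In the list of VEGF and angiopoietin genes 7 of 11 rose (background 30.3%) and none fell (28.6%), with a median of 1.03. Pgf, the placental growth factor that binds VEGFR1, rose by 1.95 (SE 0.10), Angpt2, the angiopoietin that antagonizes TIE2 in many settings, by 1.64 (SE 0.093), and Angptl4, an angiopoietin-like protein that inhibits lipoprotein lipase, by 1.70 (SE 0.14). Angpt1, the main agonist of TIE2, had 0.20 (SE 0.15, adjusted p = 0.282), Vegfb -0.021 (SE 0.12, adjusted p = 0.894) and Flt4, the VEGF-C receptor of lymphatic vessels, 0.12 (SE 0.11, adjusted p = 0.357), all named after their values were seen. Partners of endoglin rose without exception among the 10 measured of 13 listed, with a median of 0.87. Id3, a target of BMP signalling, rose by 3.21 (SE 0.094), Tgfbr1, a TGF-beta receptor, by 1.16 (SE 0.075) and Smad9, a BMP signal carrier, by 1.01 (SE 0.078). Of 11 measured Notch and ephrin genes 7 rose and 1 fell (median 0.57), among them the Notch targets Hey1 (3.06, SE 0.080) and Hey2 (2.83, SE 0.16) and the Notch ligand Jag1 (1.34, SE 0.15). Many of these genes are also expressed by bone and cartilage cells, whose markers rose as given above, and the part of those cells was not tested. After quantile normalization 6 VEGF and angiopoietin genes, 8 partners of endoglin and 4 Notch and ephrin genes rose (background 10.8%) and none fell, with medians of 0.41, 0.37 and 0.36.

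Genes of the vessel wall and of vessel restraint were mixed. Of 11 measured genes of pericytes and mural cells 5 rose (background 30.3%) and 4 fell (28.6%), with a median of 0.23. Rgs5 (1.62, SE 0.16) and Cspg4 (1.57, SE 0.13), markers of pericytes, rose, and Des, which encodes the muscle filament desmin, fell (-5.06, SE 0.30). Desmin belongs to skeletal muscle as well, whose 14 genes all fell. The other genes of this list that fell, named after their values were seen, were Acta2 (-1.02, SE 0.11), Tagln (-0.38, SE 0.15) and Myh11 (-0.33, SE 0.088). After quantile normalization Rgs5 (0.87) and Cspg4 (0.66) did not pass, and 2 genes of this list rose (background 10.8%) and 1 fell (10.4%). Among 22 measured growth and restraint factors of vessels 14 rose and 2 fell (median 0.475): Cnmd, which encodes chondromodulin, an inhibitor of vessel growth made by cartilage, rose by 7.02 (SE 0.13), Fgfr1, a receptor of fibroblast growth factors, by 2.86 (SE 0.094) and Serpinf1, which encodes the vessel inhibitor PEDF, by 2.78 (SE 0.061). After quantile normalization 7 of this list rose and 1 fell, with a median of 0.27.

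Genes of the hypoxia response, in which Vegfa is a known target, had no common direction. Of 23 genes 10 rose (background 30.3%) and 7 fell (28.6%), with a median of 0.039. With the reference genes as the centre 8 rose (20.6%) and 8 fell (39.4%). The falls were thus near the shares of all genes. P4ha1, a collagen prolyl hydroxylase, rose by 2.20 (SE 0.076), and Egln3, an oxygen sensor, and Bnip3, a mitochondrial protein, fell (-3.57, SE 0.17 and -2.07, SE 0.15). Lymphatic markers were few: of 5 measured 1 rose, Pdpn (2.45, SE 0.098), which osteocytes also express, and 3 fell, among them Ccl21, a chemokine (-2.22, SE 0.092), and Lyve1, a hyaluronan receptor (-0.52, SE 0.15), which did not pass after quantile normalization (-0.26). Macrophage genes, which bear on Stab1, Flt1 and Tek, were mixed as well, with 5 of 9 measured higher and 2 lower. Csf1r (2.82, SE 0.13) and Cd68 (2.69, SE 0.15) rose and Cd163 (-2.40, SE 0.11) fell. The part of macrophages in the rises of Stab1, Flt1 and Tek was not tested. After quantile normalization (background 10.8% higher and 10.4% lower) 6 hypoxia genes rose and 5 fell. In that setting 1 lymphatic marker rose and 1 fell, and 3 macrophage genes rose and 1 fell.

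**Figure D3:**
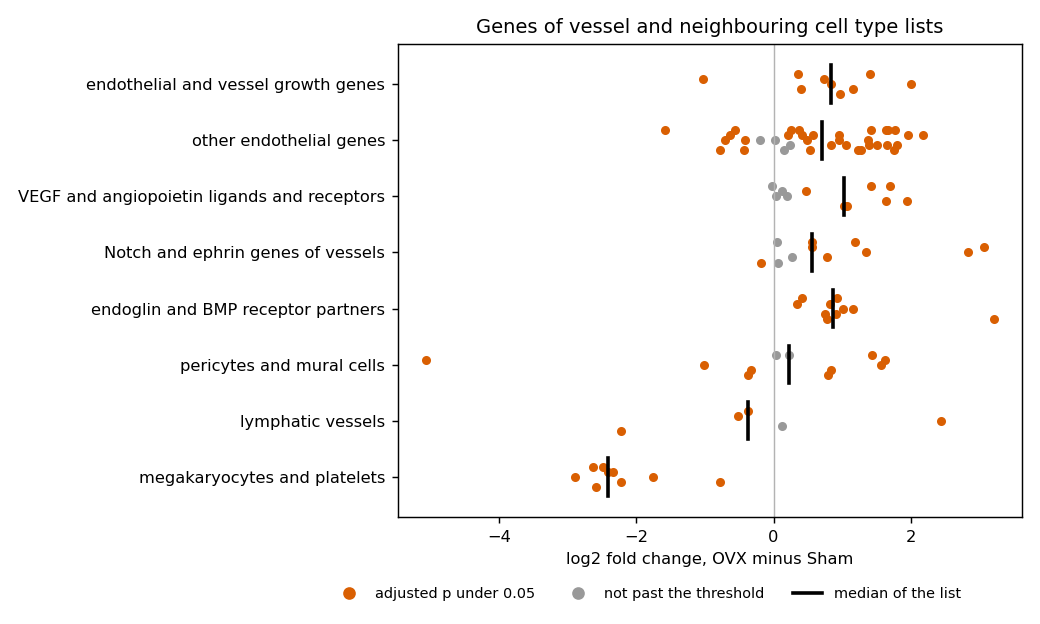
Log2 fold change of OVX minus Sham (x axis) of each measured gene in 8 lists (y axis); orange passed limma at an adjusted p under 0.05, grey did not, and black lines are list medians. The median was 0.84 for the endothelial and vessel growth genes, 0.705 for other endothelial genes and -2.41 for megakaryocyte and platelet genes, a list that shares Selp with the endothelial one.

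In bone of BB-fed OVX rats the 9 genes stood about as far from Sham as in OVX bone. All comparisons with Sham share the same 3 Sham arrays, so they are not independent. In STBB OVX bone 8 of the 9 rose (background 29.3%) and 1 fell (29.0%), and in LTBB OVX bone 8 rose (29.2%) and 1 fell (29.1%). Log2 fold changes against Sham are given for STBB OVX, LTBB OVX and OVX bone in turn: Emcn had 1.94, 1.98 and 2.01, Eng 1.29, 1.32 and 1.41, Tek 1.11, 1.18 and 1.16, and Tie1 0.97, 1.01 and 0.97. In the same order Flt1 had 0.80, 0.89 and 0.84, Kdr 0.74, 0.81 and 0.74, Pecam1 0.32, 0.34 and 0.36, and Vwf -1.05, -1.01 and -1.02. For these 8 genes the spread between the groups of OVX rats was small beside the distance from Sham (SE 0.065 to 0.10). Vegfa stood at 0.59 for STBB OVX, 0.40 for LTBB OVX and 0.41 for OVX against Sham (SE 0.088).

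Neither BB diet gave a difference from OVX that passed the test for any of the 9 genes. Between STBB OVX and OVX, limma called 0 of 14217 genes (background 0%) at an adjusted p under 0.05 and 411 (2.89%) at an unadjusted p under 0.05, and none of the 9 genes was among the 411. Between LTBB OVX and OVX it called 0 (background 0%) and 329 (2.31%), again without any of the 9. The log2 fold changes ran between -0.12 (Eng) and 0.19 (Vegfa) in STBB OVX and between -0.084 (Eng) and 0.074 (Kdr) in LTBB OVX. All 95% intervals in STBB OVX lay between -0.30 and 0.38, so that a difference from OVX larger than 1.30-fold lay outside them. In LTBB OVX they lay between -0.26 and 0.24, or 1.20-fold. Each interval is for a single gene mean as deposited. After quantile normalization Vegfa was at 0.44 in STBB OVX. A probe set of Flt1, 1377113_at, had an interval of 0.071 to 0.56 in LTBB OVX. Neighbouring group means of OVX rats were not told apart by this test for any of the 9 genes, which does not show that they are alike.

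**Figure D4:**
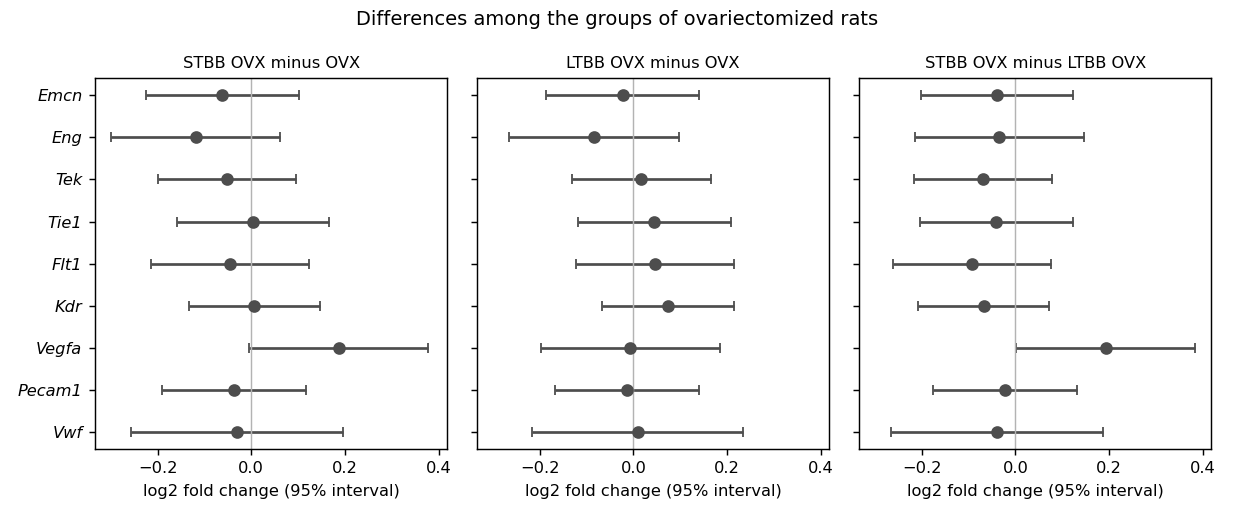
Log2 fold changes with 95% intervals (x axis) of the 9 genes (y axis) for STBB OVX minus OVX, LTBB OVX minus OVX and STBB OVX minus LTBB OVX. The intervals include 0, except that of Vegfa between the BB diets, which runs from 0.0021 to 0.38 before any adjustment.

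Vegfa was highest in STBB OVX bone. Its centred log2 values were 0.25, 0.16 and 0.24 in STBB OVX pools, -0.047, 0.13 and -0.019 in LTBB OVX pools and 0.13, -0.027 and -0.015 in OVX pools. All 3 STBB OVX pools lay above the pools of both other groups, which was so in 4.26% of all genes against OVX and in 5.30% against LTBB OVX. The log2 fold change was 0.19 against OVX (SE 0.088, unadjusted p = 0.0547 by limma) and 0.19 against LTBB OVX (SE 0.088, unadjusted p = 0.0479 by limma), and the adjusted p was 1 in both. Of its probe sets, 1370081_a_at had 0.23 (SE 0.10) and 1373807_at 0.14 (SE 0.094) in STBB OVX against OVX, and the STBB OVX pools lay above the OVX pools in both. After quantile normalization the gene mean differed by 0.44 against OVX and by 0.41 against LTBB OVX, without a call, in arrays of OVX rats whose spread that setting widens. Markers of muscle and cartilage are given beside it, since both tissues express Vegfa. None of 14 muscle and 9 measured cartilage genes passed between STBB OVX and OVX, where no gene at all was called. All 14 muscle genes were above 0 (median 2.93), 12 of them at an unadjusted p under 0.05 by limma. Of the cartilage genes 8 were above 0 (median 0.25), and 4 had an unadjusted p under 0.05 by limma. Of all genes 2.89% had such a p-value. The mean centred value of 14 skeletal muscle genes ranged from -0.12 to 0.64 over the STBB OVX arrays, from -3.17 to 0.47 over the LTBB OVX arrays and from -3.11 to -1.29 over the OVX arrays. For 9 cartilage genes it ranged from 0.18 to 0.60 in STBB OVX, from -0.056 to 0.083 in LTBB OVX and from -0.065 to 0.26 in OVX arrays. Among arrays of OVX rats, STBB OVX pools 2 and 3 had the highest muscle values (0.58 and 0.64), with Vegfa at 0.16 and 0.24. LTBB OVX pool 2 had the lowest muscle value of that group (-3.17) and its highest Vegfa (0.13). Sham arrays had the highest muscle values of all arrays and the lowest Vegfa. STBB OVX pool 1 had the highest cartilage value (0.60) and the highest Vegfa (0.25) of all arrays. OVX pool 1 (0.26 and 0.13) and LTBB OVX pool 2 (0.083 and 0.13) had the highest of both within their groups. The Sham arrays had the lowest cartilage values of all arrays. Among them pool 2 had the highest cartilage value (-4.36) and pool 3 the highest Vegfa (-0.22). The part of either tissue in the Vegfa values was not tested.

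No probe set of the receptors passed the test between diets either. The Flt1 probe set 1377113_at, named after its values were seen, had -0.092, -0.015 and 0.015 in STBB OVX pools, 0.19, 0.21 and 0.56 in LTBB OVX pools and -0.14, 0.026 and 0.13 in OVX pools. LTBB OVX pools lay above both other groups, at 0.32 (SE 0.11) against OVX, and STBB OVX was at -0.35 (SE 0.11) against LTBB OVX, with an adjusted p of 1 in both. Of all 31042 probe sets, 4.21% had LTBB OVX pools above all OVX pools and 5.26% had STBB OVX pools below all LTBB OVX pools. The other Flt1 probe sets had -0.053 and -0.13 in LTBB OVX against OVX, so the probe sets of Flt1 did not share this pattern. The Kdr gene mean lay above OVX in all 3 LTBB OVX pools (0.0087, 0.090 and 0.075, against -0.016, -0.036 and 0.0033), as 3.93% of all genes did, at 0.074 (SE 0.065). The Flt1 gene mean lay below LTBB OVX in all 3 STBB OVX pools, as 5.63% of all genes did, at -0.092 (SE 0.078). Between the BB diets limma called 0 genes (background 0%) and 484 (3.40%) at an unadjusted p under 0.05, Vegfa being the single member among them.

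The related lists also gave no call between the diets and OVX. None of 36 further endothelial genes passed in STBB OVX (median -0.025) or LTBB OVX (median -0.017), and of 11 VEGF and angiopoietin genes none passed either (medians 0.010 and -0.0010). Vegfd, a VEGF ligand named after its values were seen, had -0.18 in STBB OVX and -0.29 in LTBB OVX against the same OVX arrays (SE 0.067), with unadjusted p = 0.0191 and 1.0e-03 by limma and an adjusted p of 1 in both.

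Values over the 12 arrays were compared by the root mean square difference of the centred values. This measure was not scaled, so genes that change in the same direction by unlike sizes lie apart. Pecam1 was used as the endothelial gene in place of Cdh5, a choice made after the values were seen. The 5 genes nearest to Pecam1 were Ppp4r2 (0.050), Micos13 (0.052), Ccdc71 (0.053), Nol11 (0.054) and Reep5 (0.057), and the 5 nearest to Vegfa were Spire1 (0.084), Dnmt3a (0.090), Cdc42bpb (0.091), Cpt1a (0.094) and Lcnl (0.096). No other member was among them. The member nearest to Pecam1 was Vegfa (0.16, place 2616 of all genes), and the member nearest to Vegfa was Pecam1 (place 741). Kdr (0.25) and Flt1 (0.26) followed for Pecam1, and Vwf (0.66) and Emcn (0.83) lay farthest. Vwf, which fell, thus lay nearer to Pecam1 than Emcn, which rose most, so these distances do not tell whether members share a pattern.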

How the data were processed

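Long bone RNA of 12 pools, 3 in each of 4 groups, was measured on Affymetrix rat genome arrays. The authors deposited log2 values, made by robust multiarray analysis, floored and then scaled within arrays and within probe sets by GeneSpring. GCOS and RMA stand in the submitters' processing notes. Each probe set has a median of 0, so dim probe sets could not be filtered and background correction could not be varied. No slide or scan date was given in the labels or methods.

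Of 31099 probe sets 57 controls were left out. GEO's platform annotation names 1 symbol for 20826, several for 436 and none for 9780 of the other 31042; 20758 symbols were updated through their gene ID (RefSeq, GRCr8). Probe sets with several symbols named no gene. Means per symbol gave 14217 genes, 4525 of them from several probe sets. limma 3.58.1 (R 4.3.3) fitted 4 group means over 12 arrays, with moderated variances, 6 contrasts and Benjamini-Hochberg adjustment over all genes at 0.05; probe sets were fitted likewise. Fold changes are on the log2 scale with moderated SE, and intervals are at 95%. Residual SDs were 0.136 in STBB OVX, 0.149 in LTBB OVX, 0.145 in OVX and 0.198 in Sham. With 3 pools a side the smallest exact permutation p is 0.10, so calls rest on limma. Precision is limited by having 12 arrays. The fit was tested on simulated data in which each gene had the same spread in all groups. That test did not cover the larger spread of the Sham pools.

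The members and lists were chosen with earlier results of these data known. Named were all 9 measured members and, per list, up to 3 genes with the largest change between OVX and Sham. These list genes were taken among those called without overlap of pools. The 5 genes with the smallest root mean square difference from Pecam1 and from Vegfa were named too, and others carry a remark. Alternatives varied the scaling, weights, groups fitted, replicate block, probe sets, fold threshold and pools. Plots used matplotlib 3.10.9.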

Additional observations from a re-analysis of the deposited data

How the results depend on the processing

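Against Sham, 540 log2 fold changes of the 9 genes over the 3 comparisons and all settings were set beside the main fit. None changed direction and 18 lost the call, all of Pecam1, Vegfa or Kdr. Many of these values could not change by construction. The fold threshold, fitting fewer groups, the replicate block and leaving out a pool of a group not compared all keep the fold change. Leaving out each pool in turn ended no call: Emcn stayed between 1.94 and 2.05, Vwf between -1.15 and -0.96 and Vegfa between 0.32 and 0.48 in OVX minus Sham. Scaling moved the sizes more, and Emcn was at 0.80 and Vwf at -0.49 after quantile normalization. The number of members higher in OVX than in Sham was 5 after quantile normalization of the arrays, which by its construction narrows the Sham arrays and widens the other 9 to a common spread (3010 of all genes were then called, against 8367 as deposited), and all other settings left it within 1.5 times of 8. Centring on the reference genes gave 2925 genes higher and 5595 lower. With a fold of at least 1.5 as a further threshold 4319 genes were called. Pool numbers are shared by the groups but same-numbered pools correlated at -0.376 to 0.232 in their deviations from the group means, with 3 of 12 arrays best correlated with their own number, so they were not taken as pairs; with the replicate block 8 members were higher and 1 lower in OVX than in Sham, and 8196 genes were called. Among the groups of OVX rats no member was called in any of 567 values, of which 36 turned sign. The settings that keep the fold change could not turn a sign there. Over all genes STBB OVX minus OVX gave 40 calls with only these 2 groups fitted, 1 after quantile normalization, 8 without LTBB OVX pool 3 and 1 without STBB OVX pool 1; STBB OVX minus LTBB OVX gave 10 after quantile normalization, 8 without LTBB OVX pool 3 and 1 without STBB OVX pool 1. Before adjustment, the number of genes at p under 0.05 ran, over all settings, between 293 and 1175 for STBB OVX minus OVX, between 238 and 1125 for LTBB OVX minus OVX and between 363 and 1277 for STBB OVX minus LTBB OVX. Levels and signal over background cannot be judged from centred values.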
